A study of Danio rerio with 12 samples.

Results

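Zebrafish embryos that lacked p53 function and carried an activated BRAF transgene (BRAF;p53) were compared with embryos that lacked p53 function alone (p53). The comparison takes the 3 arrays of each of these genotypes, 6 of the 12 arrays of the study, and covers all 15502 probe sets other than the manufacturer's controls. RNA came from whole embryos at 80 hours post fertilization, obtained by incrossing fish of each genotype, and was hybridised to an Affymetrix zebrafish array. The BRAF;p53 embryos carried a stable homozygous mitf-BRAFV600E transgene and the p53 M214K mutation on both alleles. The p53 embryos carried only the M214K mutation on both alleles, so loss of p53 function is common to both groups. The remaining arrays, 3 of embryos with the transgene and intact p53 (BRAF) and 3 of Tu wild type, gave the transgene difference with p53 function and a shared estimate of spread. The comparison asks what differs between embryos with and without the transgene once p53 is missing. Each genotype came from its own incross, so the transgene cannot be told apart from differences of line, background or clutch. This holds for every transgene difference below.

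BRAF is a kinase at the top of the MEK and ERK cascade, and the V600E change keeps it active without an upstream signal. ERK induces its own brakes, among them Sprouty proteins and dual-specificity phosphatases, together with ETS transcription factors, and these transcripts are commonly used as readouts of the cascade. The mitf promoter drives expression in pigment cells and the neural crest cells they come from, which are a small share of a whole embryo. In zebrafish melanocytes activated BRAF gives nevi, and in p53 mutant fish it gives melanoma. The p53 protein is a transcription factor that induces cell cycle arrest and cell death genes after stress. In whole embryos, fewer cells of a type and less RNA per cell cannot be told apart.

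Values are log2 intensities, and in 13937 of 15617 probe sets they were centred on the probe set's own median over the 12 arrays, so 0 stands there for that median and not for absence. In the other 1680, among them the probe sets of tyr and igldcp, the median lies below 0 and what 0 stands for is unknown, while differences between arrays can still be read. Levels of different genes cannot be compared on this scale. The number of embryos or clutches behind each RNA sample is not given in the labels. The source names of p53 replicates 1, 2 and 3 are 1a, 1b and 2, so replicates 1 and 2 may share a source. All p-values measure the spread between these samples alone, and that spread may be technical. Replicates 1 and 2 of p53 correlated at 0.746 across probe sets, whereas replicate 3 correlated with them at 0.467 and 0.477. The BRAF;p53 arrays correlated with each other at 0.755 to 0.840. The median SD of a probe set was 0.156 over the 3 p53 arrays, 0.0948 over p53 replicates 1 and 2, and 0.0998 over the BRAF;p53 arrays. No probe set was matched to braf or cdkn1a, so the transgene was not checked on the arrays.

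Of the 15502 probe sets, 456 differed between BRAF;p53 and p53 embryos at a limma adjusted p under 0.05, which is 2.94%. Of these, 233 were higher in BRAF;p53 (1.50% of all probe sets) and 223 were lower (1.44%). The sizes ran from 0.30 to 7.67 among the rises and from 0.39 to 7.23 among the falls, and 84 rises and 87 falls were at least 1 on the log2 scale. In all 456 the 3 BRAF;p53 arrays and the 3 p53 arrays did not overlap. Groups without overlap were found in 21.9% of all probe sets. The counts depended on single arrays. Without BRAF;p53 replicate 1 there were 90 rises and 89 falls, and without BRAF replicate 1, which only informs the spread, there were 353 and 335. Averaging p53 replicates 1 and 2 as if they were 1 sample gave 118 rises and 136 falls.

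Genes listed for the lineage in which the mitf promoter is active were higher in BRAF;p53 embryos in a few cases. Of 32 measured genes in the neural crest, melanophore, xanthophore and iridophore lists, 4 rose and 0 fell, against 1.88% of named genes that rose and 1.52% that fell over the whole array. Every count of risen or fallen list members below is to be read against these shares. The genes that rose were crestin, tyr, slc2a15b and mycbp2, the last a ubiquitin ligase gene listed for its effect on yellow pigment. In mycbp2 only the p53 arrays stood apart from the other genotypes, as given below. A gene was counted as risen or fallen where at least 1 of its probe sets passed the test, and its list value is the mean over its probe sets.

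The transcript crestin, which marks zebrafish neural crest and cells derived from it, had 0.85, 0.62 and 0.51 in the 3 BRAF;p53 arrays against -0.04, -0.40 and 0.31 in the p53 arrays. All BRAF;p53 arrays lay above all p53 arrays, and p53 replicate 3 came closest to them. The difference was 0.70 ± 0.16 (standard error, 3 arrays per genotype; limma adjusted p = 0.0479). With each array omitted in turn, 2 of 12 fits still called it, and the highest limma adjusted p was 0.2. It was also lost after centring array medians, with a replicate block, with p53 replicates 1 and 2 averaged, and with only the 6 arrays fitted.

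The other neural crest genes encode mainly transcription factors, and 13 of 15 measured genes of this list had a difference above 0. Over the whole array 4461 of 8793 named genes were above 0. The median difference of the neural crest list was 0.10, against 0.003 over all named genes, and only crestin passed the test. The list's array medians were 0.06, -0.01 and -0.05 in BRAF;p53 and 0.006, -0.16 and -0.21 in p53, so the groups overlapped. The crest regulator sox10 stood at 0.13, 0.10 and 0.09 in BRAF;p53 and at -0.14, -0.43 and -0.32 in p53. The groups did not overlap, and the difference was 0.40 ± 0.16, short of the threshold (limma adjusted p = 0.259). For pax7a, a paired box gene of crest and xanthophore precursors, the difference was -0.38 on 1 of 4 probe sets (limma adjusted p = 0.0515) and -0.13 to 0.16 on the others. The remaining factors, among them foxd3, tfap2a, twist1a and zeb2a, lay between -0.17 and 0.25.

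In melanophores, tyrosinase and dopachrome tautomerase make melanin under control of the transcription factor Mitfa. The tyrosinase gene tyr had 0.65, 1.00 and 0.50 in BRAF;p53 and 0.22, -0.54 and -0.22 in p53 embryos. The groups were apart, with p53 replicate 1 highest among the p53 arrays, and 0 is not the median of this probe set. The difference was 0.90 ± 0.18 (limma adjusted p = 0.0267), and it passed in 9 of 12 fits without 1 array but not with only the 6 arrays fitted. The transcription factor gene mitfa itself had 0.15 ± 0.18 (limma adjusted p = 0.78), and its groups overlapped.

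The melanin synthesis gene dct had 0.34, 0.15 and 0.25 in BRAF;p53 and -0.10, 0.04 and -1.40 in p53. The groups did not overlap, but p53 replicate 3 lay more than 1 unit below the other p53 arrays. The difference of 0.73 ± 0.30 was short of the threshold (limma adjusted p = 0.262), and it was 0.28 without p53 replicate 3. The melanophore tetraspanin gene tspan36 showed the same arrangement, with 0.53, 0.24 and 0.20 against -0.03, 0.04 and -0.94. Its difference was 0.63 ± 0.23 with all arrays (limma adjusted p = 0.193) and 0.32 without p53 replicate 3. The median difference of the 7 measured melanophore genes was 0.63, and it was 0.17 without that array. Of the 7 genes, 5 had a difference above 0 and 2 below, kita and mc1r at -0.01 each. The remaining gene, pmelb, had 0.70 (limma adjusted p = 0.545).

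The xanthophore list gave 2 of the 4 rises. The transporter gene slc2a15b, which is needed for xanthophore and leucophore development in medaka, had 0.58, 0.47 and 0.52 in BRAF;p53 and -0.08, -0.40 and -0.44 in p53. All BRAF;p53 arrays were well above all p53 arrays. The difference was 0.83 ± 0.13 (limma adjusted p = 0.00642), it passed in all 12 fits without 1 array, and a further probe set of the gene had 0.85. The ubiquitin ligase gene mycbp2, whose loss in zebrafish reduces yellow pigment, had 0.91 ± 0.14 (limma adjusted p = 0.00509). Its p53 arrays lay between -0.92 and -0.80, and its BRAF;p53 arrays reached up to 0.13, close to the median of all arrays. The means of BRAF (0.04) and Tu (0.11) were close to that of BRAF;p53 (0.06), so only p53 stood apart.

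Other xanthophore genes did not pass. The difference was -0.06 for the pteridine synthesis gene gch2, -0.02 for the receptor gene csf1ra, 0.61 for the transcription factor gene sox5 and -0.43 for the carotenoid cleavage gene bco1. The list used for iridophores had 3 measured genes, at 0.41 (slc2a11b), 0.30 (gbx2) and 0.0015 (ednrba), and none passed. Of these, slc2a11b is of the same transporter family as slc2a15b and may not be particular to iridophores. The median over the 7 xanthophore genes was 0.21, and it ranged widely when arrays were left out, from 0.0017 without p53 replicate 3 to 0.39 without p53 replicate 2.

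**Figure D1:**
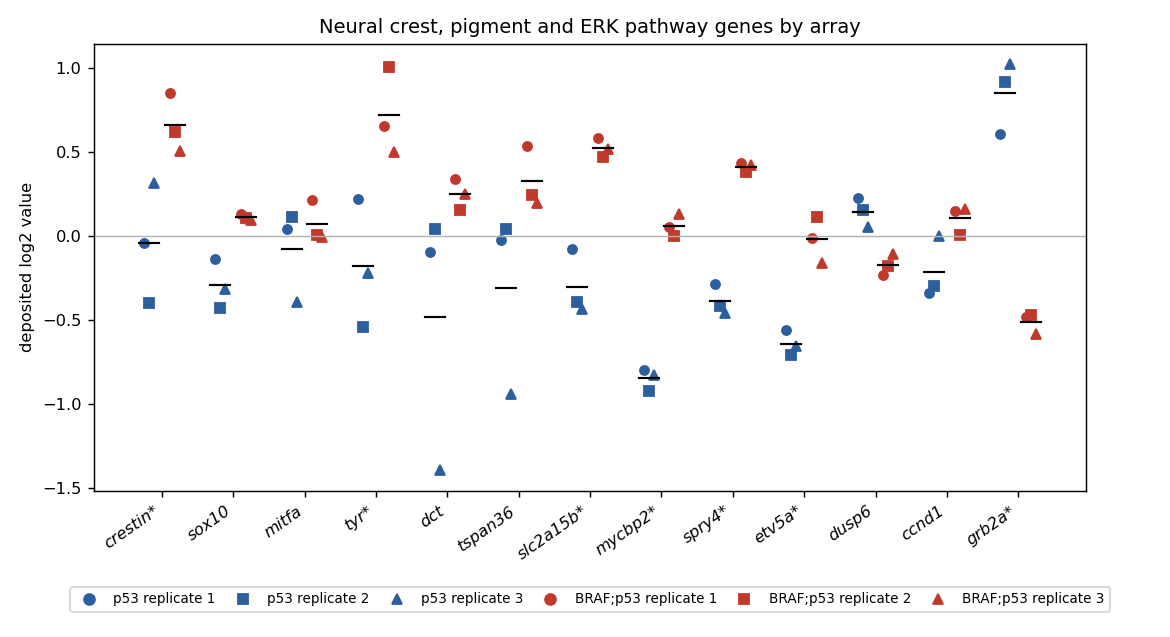
Deposited log2 values, relative to each probe set's median over 12 arrays (for tyr the median lies below 0), for neural crest, pigment and ERK pathway genes in the p53 and BRAF;p53 arrays; bars are group means, and an asterisk marks a limma adjusted p under 0.05. The BRAF;p53 arrays of crestin, tyr, slc2a15b, mycbp2, spry4 and etv5a lie above all p53 arrays, those of grb2a lie below, and p53 replicate 3 is far below the others for dct (-1.40) and tspan36 (-0.94).

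Of the ERK readouts, 2 of 22 measured genes rose and 0 fell, against 1.88% and 1.52% of all named genes. The feedback inhibitor gene spry4, a member of the Sprouty family, had 0.43, 0.38 and 0.42 in BRAF;p53 and -0.29, -0.42 and -0.46 in p53. Within each group the arrays were close together and the groups were far apart. The difference was 0.80 ± 0.09 (limma adjusted p = 0.000771), and it passed in all 12 fits without 1 array and under all 8 other settings. With intact p53 the difference was 0.63 (limma adjusted p = 0.00181), and the interaction of 0.17 ± 0.13 did not pass (limma adjusted p = 0.5).

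The ETS factor gene etv5a had -0.01, 0.11 and -0.17 in BRAF;p53 and -0.56, -0.71 and -0.66 in p53. The groups were apart by more than the range within either. Its difference was 0.62 ± 0.13 (limma adjusted p = 0.0281), held in 8 of 12 fits without 1 array and under 5 of 8 other settings, and was 0.16 on its other probe set. The mean was -0.02 in BRAF;p53 and -0.03 in Tu, so BRAF;p53 stood at the wild-type level and p53 (-0.64) below it. In BRAF the mean was 0.38, and BRAF minus Tu was 0.40 (limma adjusted p = 0.101). The phosphatase gene dusp6, another brake on ERK, ran the other way, with -0.31 ± 0.11 (limma adjusted p = 0.194). The cyclin gene ccnd1 had 0.32 ± 0.13 (limma adjusted p = 0.275). Further feedback and immediate early genes did not pass, with 0.10 for spry2, -0.04 for spred1, -0.79 for egr1 and 0.48 for fosab as means over their probe sets. The median of the 22 genes was 0.07, against 0.0033 over all named genes, and it was -0.09 without p53 replicate 3.

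Components of the cascade itself were mostly near 0, with 1 of 16 measured genes lower, 0 higher and a median of -0.02. The exception was grb2a, which encodes the adaptor that links activated receptors to RAS. It had -0.48, -0.47 and -0.59 in BRAF;p53 and 0.61, 0.92 and 1.02 in p53. The groups were separated by a gap larger than the range within either. The difference was -1.36 ± 0.15 (limma adjusted p = 0.000709), and a further probe set fell by 1.30. With p53 intact the difference was -0.14 (limma adjusted p = 0.621), and the interaction of -1.22 ± 0.21 passed (limma adjusted p = 0.0107). The differences were -0.10 for araf, 0.0027 for map2k1, -0.24 for map2k2a and -0.12 for mapk3, and none passed.

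Both groups lack p53 function, so the list of p53 targets compares embryos that share the mutation. Of 21 measured targets 1 fell and 0 rose, and their median difference was 0.003, the same as over all named genes to this precision. The cell death gene pmaip1, which encodes Noxa, had -0.55, -0.97 and -0.90 in BRAF;p53 and 1.40, 1.48 and -0.0044 in p53. Replicate 3 of p53 stood between the BRAF;p53 arrays and the other p53 arrays. The difference of -1.77 ± 0.37 passed (limma adjusted p = 0.029), in 7 of 12 fits without 1 array and under 5 of 8 other settings, but its other probe set had -0.09. The ribosomal protein gene rps27l had -0.48 ± 0.12 (limma adjusted p = 0.0618), the polo-like kinase gene plk3 -0.37 ± 0.10 (limma adjusted p = 0.0909) and the p53 inhibitor gene mdm2 -0.38 ± 0.17 (limma adjusted p = 0.309). Of 10 measured senescence genes and cell cycle inhibitors and of 38 cell cycle and replication genes, 0 passed by limma. The medians of these lists were 0.01 and -0.02. This holds for the listed genes only. Outside the lists, the cell division genes cdca5 (-1.69, limma adjusted p = 0.0051) and nuf2 (-0.47, limma adjusted p = 0.0442) were lower. The cohesin gene stag2b was higher (0.73, limma adjusted p = 0.0234).

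The largest rise with a gene name past the threshold was in micos13, which encodes a subunit of the complex that shapes mitochondrial cristae. It had 1.62, 1.78 and 1.68 in BRAF;p53 and -1.82, -2.02 and -0.70 in p53. The BRAF;p53 arrays were nearly equal, while p53 replicate 3 was higher than the other p53 arrays. The difference was 3.21 ± 0.31 (limma adjusted p = 0.000346). Next came the Hippo pathway kinase gene stk3, with 1.12, 1.42 and 1.66 against -2.13, -1.31 and -1.05. Its groups were far apart, with a difference of 2.89 ± 0.33 (limma adjusted p = 0.000785). The third was shmt2, whose mitochondrial enzyme takes carbon units from serine, at 2.68 ± 0.19 (limma adjusted p = 4.04e-05). Its other probe set rose as well, by 0.61 (limma adjusted p = 0.015).

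The other 12 of the 15 largest rises ran from 2.36 to 1.55. They included the receptor phosphatase gene ptpra (2.34), the Notch feedback gene nrarpa (1.96), the photoreceptor disc gene rom1a (1.88) and the transcription factor gene zbtb16a (1.64). They also included the histidine breakdown gene uroc1 (1.59), rtkn2 (1.58) and the mitochondrial outer membrane gene fundc2 (1.55 ± 0.09, limma adjusted p = 9.78e-06). Each of these passed in all 12 fits without 1 array, and nrarpa, whose 3 other probe sets had -0.09 to 0.27, was lost when probe sets of a gene were averaged. Several others were less stable. The integrin adaptor gene tln2a (2.36) and si:dkeyp-73d8.9 (2.30) passed in 2 of the 12 fits, the membrane skeleton gene add1 (2.14) in 4 and the phosphatase gene ublcp1 (1.91) in 7. In tln2a, p53 replicate 3 stood at -1.01, near the lowest BRAF;p53 array at -0.67, while the other p53 arrays were at -3.30 and -3.53.

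The largest fall with a gene name past the threshold was in col1a2, which encodes a chain of type I collagen. It had -2.55, -2.63 and -3.64 in BRAF;p53 and 1.1, 0.86 and 1.32 in p53. The groups were apart by more than 3 units. The difference was -4.03 ± 0.33 (limma adjusted p = 0.00012), whereas another probe set of the gene had -0.25 (limma adjusted p = 0.287) and the partner chain gene col1a1a had 0.04. The ceruloplasmin gene cp, which encodes a copper carrier of plasma, had -1.33, -1.90 and -1.64 against 1.15, 0.58 and 1.13. No array was near those of the other group, and the difference was -2.58 ± 0.19 (limma adjusted p = 4.67e-05).

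The fatty acid activating enzyme gene acsl1a was called on all 5 of its probe sets. Its named probe set had -0.81, -1.21 and -0.72 in BRAF;p53 and 0.88, 1.23 and 1.42 in p53. The groups were apart, with a difference of -2.09 ± 0.20 (limma adjusted p = 0.000292). Its 4 other probe sets fell too, with differences from -3.17 to -0.82, although by their names several of the 5 are probe sets to the same target. The dynein chain gene dync1i2b fell by 2.40, and its other probe set fell by 1.2.

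Further falls among the 15 were in the endoplasmic reticulum chaperone gene cnpy3 (-2.54), the endosomal sorting gene ptpn23b (-2.13) and the dehydrogenase gene hsd17b8 (-1.97). The membrane protein gene sypl2a (-1.73), limch1b (-1.73) and si:dkey-22l11.6 (-1.81) fell by similar amounts. All of these passed in all 12 fits without 1 array. The calls for si:ch1073-340i21.3 (-2.62), igldcp (-2.51), the sucrase-isomaltase gene si (-1.87) and the cytochrome P450 gene cyp46a1.4 (-1.75) held in 8, 6, 3 and 5 of the 12 fits. Of the 30 genes with the largest changes, 12 had another probe set. In acsl1a, shmt2 and dync1i2b another probe set passed in the same direction, and only in acsl1a did one reach 0.5 of the named change.

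**Figure D2:**
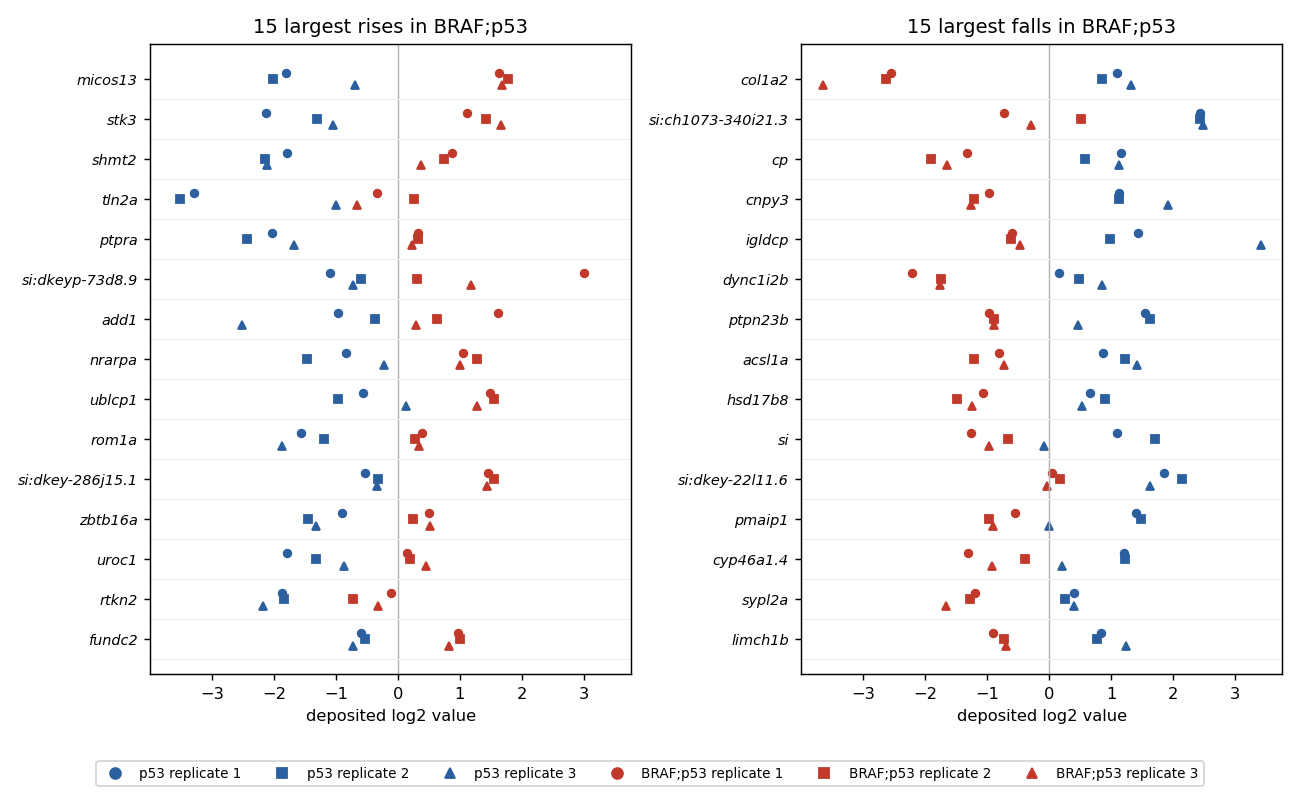
Deposited log2 values, relative to each probe set's median (for igldcp the median lies below 0), in the 6 arrays for the 15 largest rises and the 15 largest falls past the threshold with a gene name, blue for p53 and red for BRAF;p53. The groups do not overlap in any of the 30, which the choice of genes required, and p53 replicate 3 lies apart from the other p53 arrays for tln2a, add1, igldcp, ptpn23b, si and pmaip1.

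In the digestive organ lists 2 genes passed, cp of the liver and fabp1b.1 of the intestine. The sucrase-isomaltase gene si, called lower as given above, is not in these lists. Of 17 measured exocrine pancreas genes 16 had a difference below 0, with a median of -1.38, but 0 passed by limma. The enzyme genes ranged down to -2.92 for the elastase gene ela3l and -2.69 ± 1.18 for the amylase gene amy2a (limma adjusted p = 0.302). The pancreatic transcription factor gene ptf1a had 0.08. The spread between arrays was large. The amylase gene had -2.89, -2.26 and -1.90 in BRAF;p53 and 1.13, 2.17 and -2.27 in p53, so p53 replicate 3 lay inside the range of the BRAF;p53 arrays. The median over the 17 genes was -1.42, -1.25 and -1.01 in the BRAF;p53 arrays and 0.57, 1.31 and -1.86 in the p53 arrays. It also differed within Tu, with 0.45, -2.04 and 0.17, and within BRAF, with -0.12, 1.30 and 1.26. The list's median difference was -2.33 without p53 replicate 3 and -0.71 without p53 replicate 2.

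In the intestine list 1 of 16 measured genes fell and 0 rose, with a median of -0.49. The fatty acid binding protein gene fabp1b.1 had -0.84, -1.19 and -0.99 in BRAF;p53 and 0.39, 0.46 and 1.14 in p53. All BRAF;p53 arrays were below all p53 arrays, and the difference of -1.67 ± 0.23 passed in all 12 fits without 1 array (limma adjusted p = 0.00262). The brush border gene vil1 (-1.38), the bile acid binding gene fabp6 (-1.76) and the peptide transporter gene slc15a1b (-1.03) lay lower by value than most of the list and did not pass. Of the 16 genes, 10 had a difference below 0 and 6 above 0. Among those above were pck1 (0.82) and apoa4a (0.45), which did not pass either. The list's median was -0.33 without BRAF;p53 replicate 1 and -0.27 without p53 replicate 2. Of 19 measured liver genes, only cp passed, and the median was -0.10. The next lowest was the liver fatty acid binding gene fabp10a at -1.03 (limma adjusted p = 0.475), and the other 17 lay between -0.35 and 0.37.

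**Figure D3:**
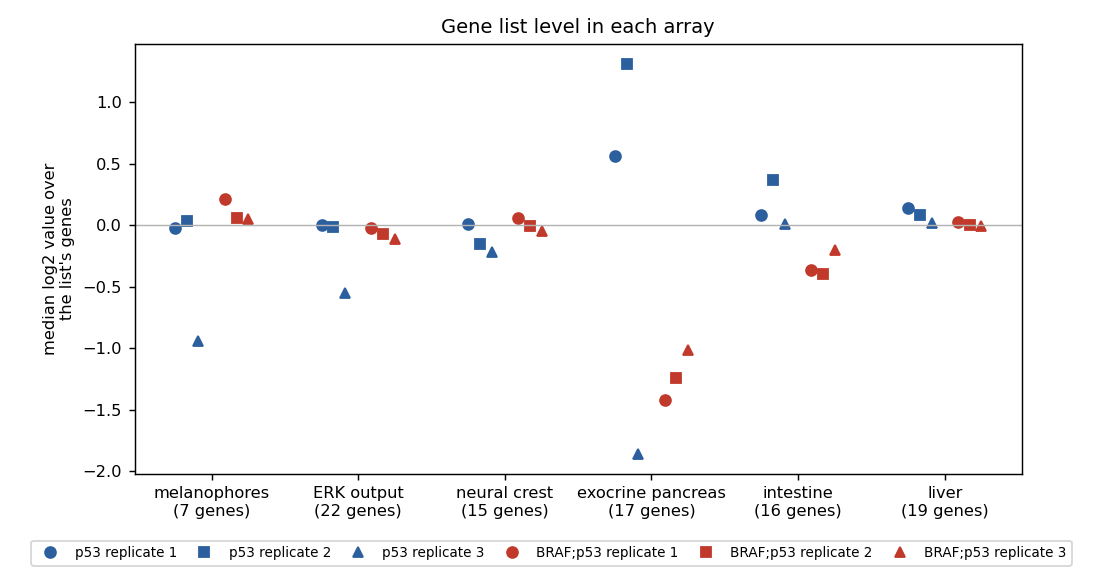
Median log2 value over the genes of 6 lists in each p53 and BRAF;p53 array, as deposited. The exocrine pancreas list lies between -1.42 and -1.01 in the BRAF;p53 arrays and spans -1.86 to 1.31 in the p53 arrays, and p53 replicate 3 is lowest for the melanophore (-0.94) and ERK output (-0.55) lists.

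For the melanophore list the array medians were 0.21, 0.05 and 0.05 in BRAF;p53 and -0.03, 0.04 and -0.94 in p53. For ERK output they were -0.03, -0.08 and -0.12 in BRAF;p53 and 0.0015, -0.01 and -0.55 in p53. Replicate 3 of p53 was thus lower than every other array of both groups for the melanophore, ERK output and exocrine pancreas lists at once. Its part in the list differences was measured by leaving it out, as given above, and the reason for its position was not tested. The calls for spry4, slc2a15b and mycbp2 do not rest on it, since they passed in every fit that left out 1 array.

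Purines are the material of iridophore crystals and of xanthophore pteridines, and DHODH is an enzyme of pyrimidine synthesis. Of 15 measured nucleotide synthesis genes 1 fell and 0 rose. The purine synthesis gene paics had -0.19, 0.07 and -0.41 in BRAF;p53 and 1.25, 0.90 and 1.55 in p53. The groups were apart, and the difference of -1.41 ± 0.18 passed in all 12 fits without 1 array (limma adjusted p = 0.00204). The other genes did not follow it, with 0.41 for ppat, 0.27 for gart, 0.27 ± 0.12 for dhodh (limma adjusted p = 0.324) and a list median of 0.12. Of 22 transcription elongation genes, eaf2, which encodes a partner of the elongation factor ELL, rose by 0.59 ± 0.14 (limma adjusted p = 0.0452), in 3 of 12 fits without 1 array and under 4 of 8 other settings. The pausing factor gene nelfcd and the elongation kinase gene cdk9 had 0.43 each (limma adjusted p = 0.0515 and 0.0582).

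In the remaining tissue lists few genes passed. The epidermal tight junction gene cldnb fell by 0.56 ± 0.11 (limma adjusted p = 0.0225) and the keratin gene krt17 fell by 0.62 ± 0.14 (limma adjusted p = 0.0458), 2 of 17 measured epidermis genes. They held in 7 and 3 of the 12 fits without 1 array and under 6 and 4 of the 8 other settings. Of 20 cartilage and bone genes, col1a2 fell and the link protein gene hapln1a rose. The named hapln1a probe set had 1.17, 1.12 and 0.96 in BRAF;p53 and -0.07, -0.01 and -0.07 in p53, with no overlap. Its difference was 1.13 ± 0.11 (limma adjusted p = 0.000292), while its 5 other probe sets ran from -0.43 to 0.50 and none passed. By their names several of these, including that at -0.43, may share a target with probe sets of hmga1a and not measure hapln1a. The hapln1a call was lost when the probe sets of each gene, these among them, were averaged. The sterol demethylase gene cyp51 fell by 1.54 ± 0.34 (limma adjusted p = 0.0368), 1 of 9 measured cholesterol and fatty acid synthesis genes, and held in 5 of 12 fits without 1 array. Of its 3 other probe sets, 1 had -2.07 (limma adjusted p = 0.0421) and the others -0.06 and 0.02, and the reductase gene dhcr7 of the same list had 1.14 (limma adjusted p = 0.0618). The list medians were -0.07 for epidermis, 0.04 for cartilage and bone and -0.09 for cholesterol and fatty acid synthesis.

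None of the measured genes passed by limma in the lists for skeletal muscle (18 genes), heart (6), erythrocytes (15), leukocytes (12), endothelium (5), lens (4), photoreceptors (15), neurons (13), or myelin and glia (9). The same held for circadian and glucocorticoid genes (18) and for chaperones and stress genes (24). Their medians lay between -0.12 for photoreceptors and 0.14 for endothelium. By value the muscle regulator myog had 0.42 and the glutathione synthesis gene gclc -0.50 (limma adjusted p = 0.0515 and 0.0571). Among markers of other tissues, the muscle creatine kinase gene ckma had 0.0021. The photoreceptor disc gene rom1a, which rose by 1.88, is not in the photoreceptor list. All 4 measured lens genes were above 0, from 0.04 for cryba4 to 0.31 for cryaa (limma adjusted p = 0.249), whose groups did not overlap.

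**Figure D4:**
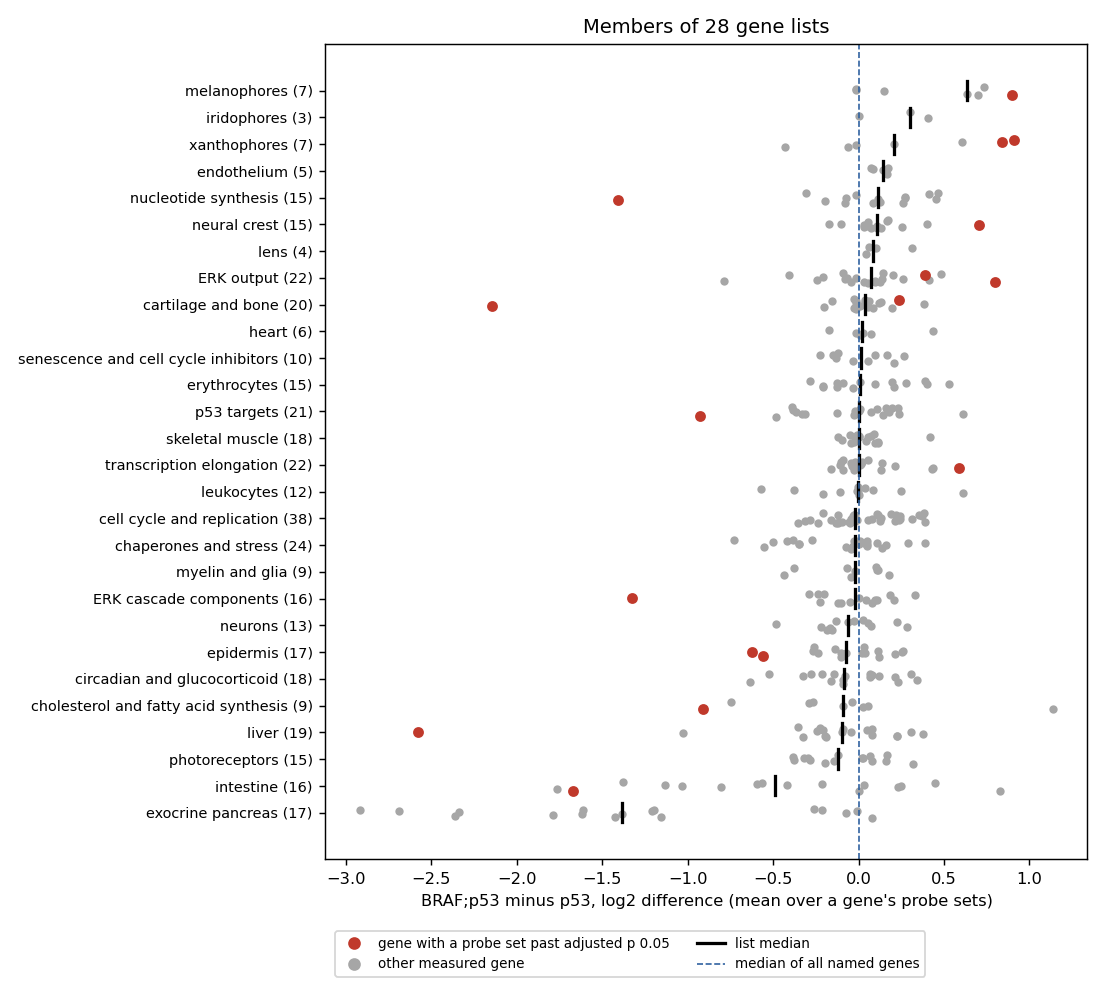
Difference of BRAF;p53 minus p53 on the log2 scale for each measured gene of 28 lists, as the mean over a gene's probe sets, with the list median as a bar and the median of all named genes as a dashed line; the number of measured genes is in brackets. Melanophores have the highest list median (0.63) and exocrine pancreas the lowest (-1.38), and no pancreas gene is past the threshold.

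The transgene difference with p53 function, BRAF minus Tu, shares no array with BRAF;p53 minus p53, although both use the spread of all 12 arrays. With p53 intact, 494 probe sets were higher in BRAF (3.19%) and 499 were lower (3.22%). Of the 233 probe sets that rose without p53 function, 58 also rose with it, which is 24.9% of these and 11.7% of the 494. A further 21 (9.01%) fell with p53 intact, and 154 were not called there. Of the 223 that fell, 53 also fell with p53 intact, which is 23.8% of these and 10.6% of the 499, while 25 (11.2%) rose and 145 were not called. BRAF minus Tu had the same sign in 159 of the 233 rises and in 140 of the 223 falls. The shares of positive and negative BRAF minus Tu over all probe sets were not counted. These sign counts therefore have no background to be read against, and whether they exceed it was not tested.

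Genes that moved alike in both settings included several of the largest changes. The difference without and with p53 function was -4.03 and -3.98 for col1a2, 2.89 and 2.80 for stk3, 3.21 and 2.64 for micos13, 1.96 and 1.91 for nrarpa and -1.97 and -2.03 for hsd17b8. Their interactions lay between -0.05 and 0.56 and did not pass. Among list members, spry4, paics and krt17 were called in the same direction in both. Crestin had 0.59 with p53 intact (limma adjusted p = 0.0598) and an interaction of 0.11 ± 0.23 (limma adjusted p = 0.822). For tyr the difference was -0.09 with p53 intact, and the interaction of 0.99 ± 0.26 did not pass (limma adjusted p = 0.0702).

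The interaction, the difference between both transgene differences, passed in 497 probe sets (3.21%), and in 144 of the 456 called without p53 function. It contains the BRAF;p53 minus p53 difference by which the 456 were chosen. Their share is therefore raised by construction and cannot be set against the 3.21%. Ceruloplasmin had the smallest p. In cp the 3 BRAF arrays stood at 1.72, 1.33 and 1.47 and the Tu arrays at -1.26, -1.2 and -0.98, so cp was high in embryos with either the transgene or the p53 mutation and low in embryos with both or neither. The transgene difference was 2.65 with p53 and -2.58 without it, and the interaction was -5.23 ± 0.26 (limma adjusted p = 8.02e-06). The transcription factor gene zbtb16a went the other way. It had -0.33, -0.28 and -0.43 in BRAF and 0.82, 1.15 and 1.1 in Tu, a difference of -1.37, against 1.64 without p53, with an interaction of 3.02 ± 0.21 (limma adjusted p = 2.89e-05).

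Among the other named genes past the interaction test, fundc2, ptpra, rtkn2, mycbp2 and hapln1a rose without p53 function and had smaller differences, between -0.07 and 0.67, with it. In ptpra, rtkn2 and mycbp2 the p53 arrays stood apart from the other genotypes, with means of -2.05, -1.96 and -0.85. The means in the same order were 0.29, -0.38 and 0.06 in BRAF;p53 and -0.26, 0.27 and 0.11 in Tu. The genes grb2a, sypl2a and si:dkey-22l11.6 fell without p53 function and had differences between -0.14 and 0.10 with it. In si:dkey-22l11.6 the p53 arrays stood apart (mean 1.88), against 0.06 in BRAF;p53, -0.35 in BRAF and -0.33 in Tu. In sypl2a the BRAF;p53 arrays did (-1.38), against 0.35 in p53, 0.05 in BRAF and -0.05 in Tu. In grb2a the means of BRAF (-0.03) and Tu (0.11) lay between those of BRAF;p53 (-0.51) and p53 (0.85). The sucrase-isomaltase gene si had -1.87 without p53 and 1.46 with it, with an interaction of -3.33 ± 0.60 (limma adjusted p = 0.0126). The elongation genes cdk9 and nelfcd had 0.43 each without p53 and -0.45 and -0.29 with it, and their interactions of 0.89 and 0.72 passed (limma adjusted p = 0.00995 and 0.0243).

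Some of the smallest interaction p-values came from genes that did not pass between BRAF;p53 and p53. The ubiquitin conjugation gene ube2q2 had 1.13 without p53 and -6.19 with it (interaction 7.32, limma adjusted p = 1.57e-05). The mitochondrial carrier gene slc25a14 had -0.24 and -5.36 (interaction 5.12, limma adjusted p = 1.57e-05). The sulfotransferase gene sult1st1 had -0.09 and -2.39 (interaction 2.29, limma adjusted p = 2.89e-05), and pbldp had -0.48 and 2.34 (interaction -2.81, limma adjusted p = 1.57e-05). In the first of these the BRAF arrays stood apart from the other 3 genotypes, and in the remaining 3 the Tu arrays did.

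**Figure D5:**
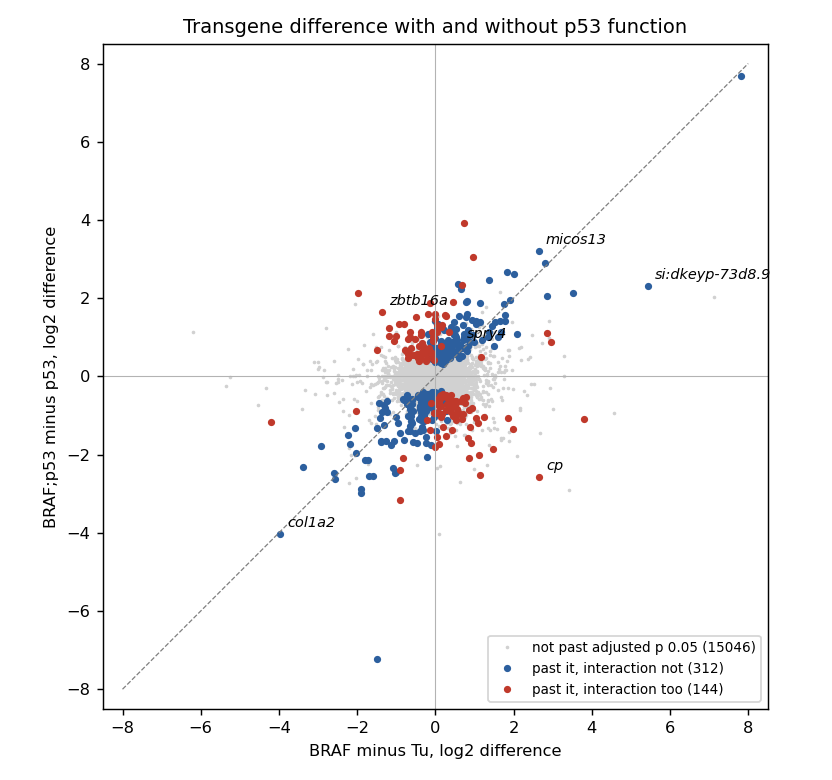
Difference of BRAF;p53 minus p53 against the difference of BRAF minus Tu for 15502 probe sets, both on the log2 scale; coloured points (456) are past a limma adjusted p of 0.05 for BRAF;p53 minus p53, and red points (144) are also past it for the interaction. Probe sets near the dashed line of equal differences include col1a2 and micos13, while cp and zbtb16a lie in quadrants of opposite sign.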

How the data were processed

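Expression was measured on 12 Affymetrix zebrafish arrays, 3 per genotype; genotypes and replicate numbers follow the sample labels and titles. The deposited values are log2 intensities from GCRMA (per the submitters' processing notes; version not given in the sources used here). On the linear scale the median over the 12 arrays was 1 for 13937 of 15617 probe sets (tolerance 0.0001) and lower for 1680. Most probe sets had thus been centred on their median. What the other 1680 were centred on is unknown, as is the brightness of all. Arrays have no depth, and their number limits precision.

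Differences were fitted with lmFit and eBayes in limma 3.58.1 (R 4.3.3), 1 mean per genotype over all 12 arrays, without covariates. The tests were two-sided, adjusted by Benjamini-Hochberg over 15502 probe sets (115 controls left out), at a threshold of 0.05. The fit was tested on simulated data. Platform annotation gave 1 symbol to 10795 tested probe sets (8793 symbols), several to 135 and none to 4572. The 28 gene lists held 628 genes, of which 413 were measured, and a gene's list value is the mean over its probe sets. The lists and the comparison were chosen with earlier results of these data known.

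Named were the 15 largest rises and 15 largest falls past the threshold without overlap between arrays (1 probe set per gene, smallest p), list members past it, up to 2 more per list by value, 12 genes fixed by name and the 5 smallest interaction p-values; further list members are given by value. Same-numbered BRAF;p53 and p53 arrays had deviations from their group means that correlated at 0.026, -0.11 and -0.0046, and the numbers were not treated as pairs. Alternatives were a replicate block, a fit of 6 arrays only, an average of p53 replicates 1 and 2, quantile normalization, array medians set to 0, trended and robust eBayes, omission of probe sets with a median below 1, 1 averaged value per gene, a minimum log2 difference of 1 and each array left out. Plots used Python 3.11.15 with pandas 2.3.3, numpy 2.4.6 and matplotlib 3.10.9.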

Additional observations from a re-analysis of the deposited data

Results flagged for a closer look

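In 27 named genes the transgene difference without p53 function differed from that with it, by the limma interaction (BRAF;p53 minus p53, minus BRAF minus Tu, log2 scale). Many named genes were chosen by BRAF;p53 minus p53, which is part of the interaction, and 5 by their interaction p. Their number is thus raised by the choice and is not a rate, and over all probe sets 3.21% passed. In 15 of the 27 genes BRAF;p53 and p53 embryos also differed. Of these, the interaction was above 0 in zbtb16a (3.02), si:dkey-286j15.1 (2.01), ptpra (1.67), rtkn2 (1.32), fundc2 (1.27), mycbp2 (0.98) and hapln1a (0.79). It was below 0 in cp (-5.23), igldcp (-3.64), the sucrase-isomaltase gene si (-3.33), sypl2a (-1.83), si:dkey-22l11.6 (-1.79), dync1i2b (-1.51), acsl1a (-1.26) and grb2a (-1.22). In dync1i2b and acsl1a the difference was also called in the same direction with p53 intact (-0.89 and -0.83), and it was larger without p53. In ptpra, rtkn2, fundc2, hapln1a, grb2a and si:dkey-22l11.6 the sign was the same too. With p53 intact their differences were smaller and not called. The gene igldcp has a probe set median below 1.

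In the other 12 the difference between BRAF;p53 and p53 did not pass by itself. The interaction was 7.32 in ube2q2, 5.12 in slc25a14, 2.29 in sult1st1 and -2.81 in pbldp. It was 1.92 in the lens chaperone gene cryaa, which had -1.61 with p53 intact and 0.31 without. It was -1.11 in the thymidine kinase gene tk1, 0.59 in the spindle checkpoint gene mad2l1 and -0.68 in plk3. It was 0.89 in cdk9, 0.72 in nelfcd, 0.75 in the heart and fin regulator hand2 and 1.14 in the cartilage gene cnmd. The limma adjusted p of these 27 interactions ran up to 0.047, in cnmd.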

How the results depend on the processing

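Between BRAF;p53 and p53, 233 rises and 223 falls were called, with 497 interactions, 58 rises and 53 falls shared with BRAF against Tu; the shared counts were added after seeing the data. Quantile normalization gave 367 rises, 330 falls and 594 interactions. Averaging p53 replicates 1 and 2 gave 118 rises, 136 falls and 312 interactions. With 1 averaged value per gene the counts were 144, 120, 312, 35 and 29, and with a log2 difference of at least 1 they were 84, 87, 317, 25 and 22; both test or keep fewer features. Leaving out each array gave 90 to 353 rises, 89 to 335 falls, 284 to 787 interactions, and 28 to 74 shared rises and 27 to 75 shared falls. The lowest 5 came without BRAF;p53 replicate 1. Counts of rises or falls also moved by over 1.5 times without BRAF;p53 replicates 2 or 3, p53 replicates 1 or 2, or BRAF replicate 1. Interactions did so without BRAF;p53 replicate 2 (292), p53 replicates 1 (325), 2 (307) or 3 (787) or Tu replicate 2 (304). A replicate block gave 215 rises, 209 falls and 481 interactions; the strongest correlations of deviations joined BRAF;p53 replicate 2 with p53 replicate 1 (0.178) and replicate 3 with replicate 2 (0.185). The cause of these shifts was not tested where fewer samples or features do not account for them. Of 44 named calls 26 passed under all 20 alternatives and 28 in all 12 fits without 1 array, and no named gene changed sign past the threshold. Signal over background is unknown, so dim and bright probe sets weigh alike.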

Other observations

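The most extreme probe sets carry no single gene name in the platform annotation. The probe set with the largest rise stood at 1.6, 1.58 and 1.49 in BRAF;p53 and at -5.76, -5.94 and -6.64 in p53, a difference of 7.67 ± 0.19, and BRAF minus Tu was 7.82 (limma adjusted p = 3.06e-09 and 2.47e-09). The probe set with the largest fall stood at -0.36, -0.36 and 0.35 in BRAF;p53 and at 6.80, 7.20 and 7.32 in p53, a difference of -7.23 ± 1.16 (limma adjusted p = 0.00699). BRAF minus Tu was -1.50 there and did not pass. By its name this probe set shares its target with a probe set of epcam, whose difference was 0.05 (limma adjusted p = 0.855). Among all called probe sets, 62 rises and 78 falls had no single symbol.

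Genes called in opposite directions with and without p53 function, chosen here after their values were seen, included further ones beside cp and zbtb16a. The melanin-concentrating hormone receptor gene mchr1b had -1.08 without p53 and 3.81 with it, the sialyltransferase gene st6gal2a -1.05 and 1.86, the collagen gene col14a1a 1.23 and -1.18, and ndrg4 0.68 and -1.50. Without p53 the calls of mchr1b and ndrg4 lay just under the threshold (limma adjusted p = 0.0479 and 0.0493). Whether the calls of these genes hold with an array left out was not examined.

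Called genes were looked up by order along the GRCz12tu assembly, which named 8758 of the measured genes, 3.39% of them called. Of 593 positions directly beside a called gene, 32 (5.40%) held a called gene. A gene beside 2 called genes counts at both positions, and each adjacent called pair counts from both sides. The most calls in any window of 10 measured genes was 4, and the first such window found held eef1a1b, slc2a15b, anos1a and nlgn4xa. Other windows with 4 were not listed. What maximum over all windows a share of 3.39% would give was not tested.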
